A study of Mus musculus with 31 samples.

Results

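The genes examined were *Ms4a1*, *Cd79a*, *Cd79b*, *Pax5*, *Ighm*, *Ighd*, *Igkc*, *Igj* and *Mzb1*, named as B cell and plasma cell genes and matched by symbol in the count table. Of these 9 genes, 8 were matched among the 39179 genes of the table. *Ighd* (the IgD heavy chain) has no row matching and was not analysed here. B cells carry an antigen receptor made of a membrane immunoglobulin and the signalling chains CD79A and CD79B, together with surface molecules such as CD20. Plasma cells lose most of that surface program and secrete immunoglobulin in bulk. A tumor with many plasma cells therefore usually shows abundant heavy and light chain transcripts. The transcripts that define B cells, *Ms4a1*, *Cd79a* and *Pax5*, had 10, 1 and 3 counts in all 20 tumor libraries together, so the levels below come from *Cd79b*, *Ighm*, *Mzb1*, *Igj* and *Igkc* and are given gene by gene rather than as a B cell level.

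Topical treatment with the glucocorticoid clobetasol propionate (GC, 0.05% ointment, 3 applications per week) was compared with a control cream. Tumors grew from intradermally injected 20967 melanoma cells, parental or lacking the glucocorticoid receptor (GR KO), with 5 tumors in each of 4 groups. The mice were wild-type C57BL/6, so only the cancer cells lacked the receptor and the host cells of every tumor had it. The 11 cultures of the same cells (parental with DMSO 3, parental with GC 2, GR KO with DMSO 3, GR KO with GC 3) served as background without immune cells. The 20967 line came from a C57BL/6 mouse with an inducible *Nras* G12D allele, and the GR KO cells were grown from single edited cells, so clone and genotype cannot be told apart. The edited gene *Nr3c1* was counted at 873 to 1401 in parental control, 466 to 1090 in parental GC, 282 to 824 in GR KO control and 402 to 1291 in GR KO GC tumors. A small edit leaves 3′ reads in place and host cells carry the intact gene, so these counts do not check the genotype.

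*Ms4a1* encodes CD20, a surface protein of mature B cells. It had 5 counts in parental GC replicate 5, 5 counts in GR KO control replicate 4 and 0 in the other 18 tumors. *Cd79a*, a signalling chain of the B cell receptor, had 1 count in parental control replicate 5 and 0 in the other 19. *Pax5*, the transcription factor that holds the B lineage identity, had 1 and 2 counts in parental control replicates 2 and 3 and 0 elsewhere. No group stood above another for these 3 genes, and none passed the low-count filter. In the cultures *Ms4a1* and *Pax5* had 0 counts, while *Cd79a* had 6 counts in GR KO DMSO culture 3, more than in any tumor. Over all tumor counts the levels, as CPM (counts scaled to library size), were 0.0257 for *Ms4a1* (95% interval 0.0123 to 0.0472), 0.00257 for *Cd79a* (6.5e-05 to 0.0143) and 0.00770 for *Pax5* (0.00159 to 0.0225). These Poisson intervals cover counting error only, not the spread between tumors or copies made by PCR. Fewer B cells and less RNA of these genes per cell cannot be told apart in whole-tumor RNA. The 3 genes summed to between 0 and 5 counts per tumor, while the T cell genes *Cd3d*, *Cd3e* and *Cd3g* summed to between 354 and 1795. *Trac*, another T cell gene, had 0 counts in every tumor beside these *Cd3* counts. A count of 0 for a single gene therefore does not show that a cell type was absent. Whether the counting missed reads of *Ms4a1*, *Cd79a* or *Pax5* was not tested. *Ms4a1* and *Pax5* lie across genes on the opposite strand, and no strand setting is named for the counting beyond a general use of defaults, so their few reads are uncertain.

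*Cd79b* encodes the partner chain of CD79A in the B cell receptor. It had 150, 95, 153, 142 and 170 counts in parental control and 116, 183, 55, 208 and 93 in parental GC tumors. In GR KO tumors it had 159, 91, 131, 238 and 114 counts with control and 40, 129, 72, 47 and 107 with GC. All 20 tumors were well above the cultures, which had 0 to 2 counts. The means were 7.20 (SD 1.87), 6.69 (SD 3.23) and 8.45 (SD 2.36) CPM in parental control, parental GC and GR KO control, and 3.86 (SD 2.07) in GR KO GC. The GR KO GC tumors were the lowest group, but their range of 1.78 to 6.95 CPM overlapped the 5.43 to 11.7 CPM of GR KO controls. Only GR KO GC replicate 2 (6.95 CPM) lay inside the control range, and the other 4 lay under it. *Cd79b* was counted in every tumor, while *Cd79a* had 1 count in all, in parental control replicate 5. That count is too low to show whether the receptor chains appeared together.

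*Ighm* encodes the IgM heavy chain, present on naive B cells and secreted by some plasma cells. It had 0, 25, 14, 17 and 40 counts in parental control and 4, 17, 23, 6 and 11 in parental GC tumors. In GR KO tumors it had 0, 86, 77, 29 and 4 counts with control and 28, 17, 0, 11 and 7 with GC. The highest tumors were GR KO control replicates 2 and 3 (5.14 and 5.26 CPM), the group also held a tumor at 0, and all 4 groups overlapped. *Igkc* encodes the constant region of the kappa light chain, used by most mouse antibodies. It had 3, 8, 8, 19 and 4 counts in parental control, 0, 0, 15, 4 and 9 in parental GC, 10, 0, 6, 16 and 0 in GR KO control, and 15, 2, 22, 2 and 64 in GR KO GC tumors. GR KO GC replicate 5 (64 counts, 2.91 CPM) was the highest, the other 4 of its group lay within the CPM range of the remaining groups, and the groups overlapped. *Ighm* and *Igkc* had 0 counts in every culture.

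*Igj* encodes the joining chain that links IgA and IgM into polymers in plasma cells. It had 2, 26, 3, 12 and 0 counts in parental control and 15, 13, 32, 25 and 4 in parental GC tumors. In GR KO tumors it had 0 counts in all 5 controls and 24, 14, 28, 0 and 26 with GC. GR KO controls were thus all at 0, GR KO GC replicate 4 shared that value, and the parental groups overlapped each other. *Mzb1* encodes a chaperone of immunoglobulin assembly in marginal zone B cells, plasma cells and plasmacytoid dendritic cells. It had 16, 13, 15, 3 and 0 counts in parental control, 11, 52, 10, 41 and 12 in parental GC, 0, 14, 2, 30 and 0 in GR KO control, and 21, 65, 18, 38 and 7 in GR KO GC tumors. Its highest tumors were replicates 2 and 4 of both GC groups (2.01 to 3.50 CPM), and all groups overlapped. In the cultures *Mzb1* had 0 counts and *Igj* had 2 in 1 parental GC culture. *Igkc* and *Mzb1* each overlap a gene annotated on their own strand in a later release, so their reads are uncertain too. The reads come from the 3′ end and are not scaled by gene length, so levels of different genes are not compared per length.

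**Figure D1:**
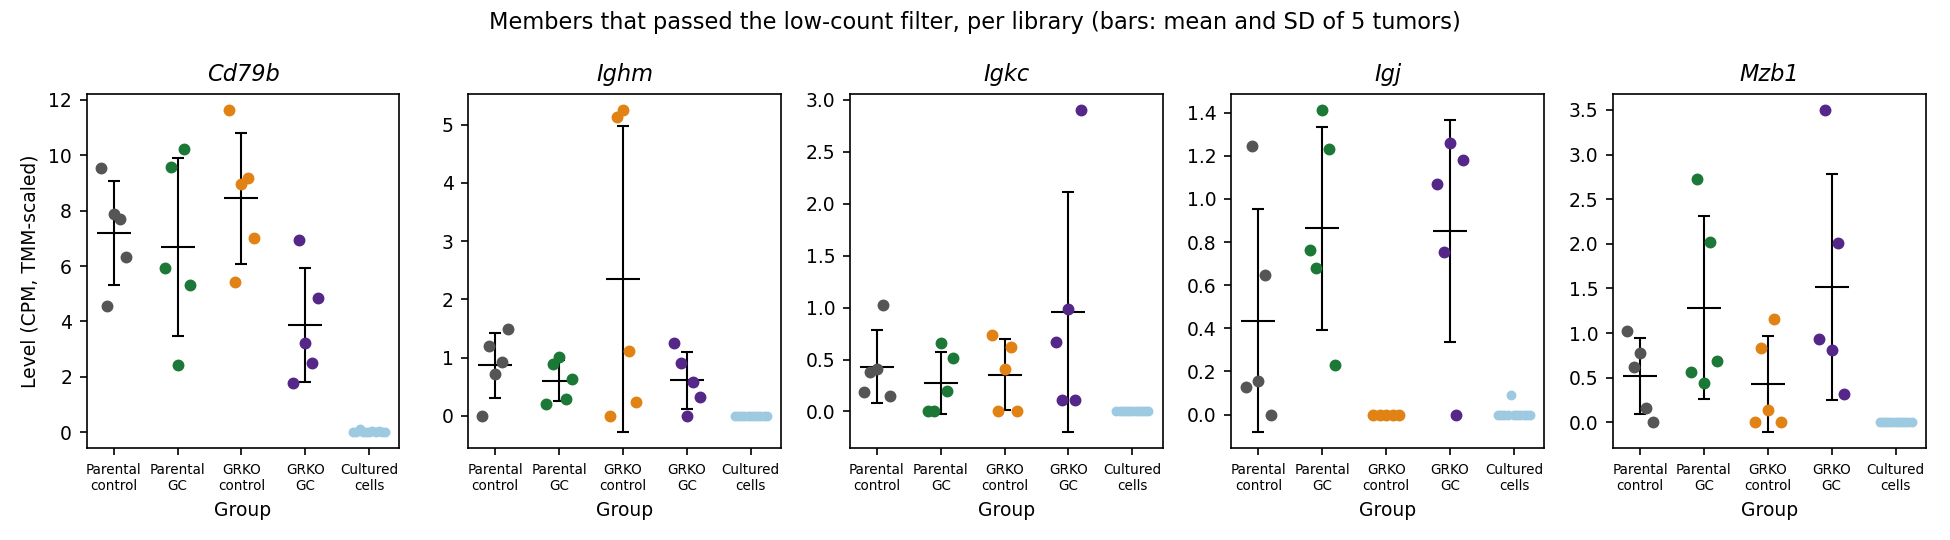
CPM of the 5 genes that passed the filter in each of 20 tumors and 11 cultures, with group means and SD for the tumors. The scale differs between panels.

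For GC against control in parental tumors, edgeR's quasi-likelihood test called 0 of the 5 tested genes (0 at an unadjusted p under 0.05) and DESeq2 called 0 (0 at p under 0.05). DESeq2 gave an adjusted p to *Cd79b* alone, so the other 4 could not be called by it. Among all 15919 genes tested, edgeR called 0.779% and DESeq2 2.36%. *Cd79b* changed by a log2 fold change of -0.10 (SE 0.39) and *Mzb1* by 1.32, with edgeR adjusted p (Benjamini-Hochberg over all genes) of 0.940 and 0.633. *Igj* (0.98), *Igkc* (-0.64) and *Ighm* (-0.52) had adjusted p of 0.763 to 0.882 by edgeR. The sign for *Cd79b* rested on single tumors: the value was 0.02 without parental control replicate 1 and 0.11 without parental GC replicate 3. The median over the 5 genes was -0.10, against 0.004 for all genes, and ran from -0.31 to 0.11 without single tumors.

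For GC against control in GR KO tumors, edgeR called 1 of the 5 genes (2 at p under 0.05) and DESeq2 called 2 (2 at p under 0.05), against 6.42% of all genes by edgeR and 11.03% by DESeq2. The gene called by both tools was *Igj*, whose control tumors were all at 0. Against a floor of 3 counts per library it was at least 4.72-fold higher with GC (mean 0.853 CPM against a floor of 0.181), above the floor in 4 of 5 GC tumors. The fitted value, which depends on the prior count and is no bound, was 7.08 (SE 1.69, adjusted p 0.0194 by edgeR's quasi-likelihood test). *Igj* entered the test through the other groups alone, since no GR KO control reached 0.5 CPM, so its call carries little weight. The two-sided exact permutation p for *Igj* was 0.0476. Untied values of 5 against 5 tumors allow a p of 0.00794, but with 6 of the 10 tumors at 0 no *Igj* values could give less than 0.0476. The call depended on the model. *Igj* was not called when only the compared groups were fitted (adjusted p 0.0746) or when a measure of how many genes each library detects was a covariate (0.123), in a range over edgeR and DESeq2 alternatives of 0.000958 to 0.123. The covariate was added after the data were seen.

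*Cd79b* was the other gene called by DESeq2 for GC in GR KO tumors, at -1.16 (adjusted p 0.0372). By edgeR it was -1.13 (SE 0.40) with an adjusted p of 0.0868, not past the threshold, over a range of 0.0372 to 0.337 in the alternatives of DESeq2 and edgeR. It was called in 1 of 10 edgeR fits that left out a tumor, the one without GR KO GC replicate 2 (-1.45, adjusted p 0.0389). Its two-sided exact permutation p was 0.0159, unadjusted, the smallest of 24 such comparisons, 3 of which had p under 0.05. On library totals without TMM factors it was 0.0476, the same as for *Igj*. The other comparisons with p under 0.05 were of *Igj*, at the least p that its zeros allow. The 24 also held those of *Ms4a1*, where only 1 tumor of a comparison had counts, so that p was fixed in advance. *Ighm* (-1.93), *Igkc* (1.43) and *Mzb1* (1.78) had edgeR adjusted p of 0.301, 0.519 and 0.340. For *Mzb1* the exact permutation p was 0.0794 in GR KO and 0.175 in parental tumors. The median over the 5 genes was 1.43, also with *Igj* at its bound, against 0.0515 for all genes, with fitted values on both sides of 0. That median is the *Igkc* value and rested on GR KO GC replicate 5 (64 counts): without it the median was 0.41.

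The difference between the GC effects of parental and GR KO tumors was tested directly. edgeR called 0 of the 5 genes (1 at p under 0.05) and DESeq2 called 0 (1 at p under 0.05), against 0.195% of all genes by edgeR and 4.92% by DESeq2. The difference (parental minus GR KO) was 1.02 (SE 0.56) for *Cd79b* and -6.10 for *Igj*, with edgeR adjusted p of 0.305 and 0.118. The *Igj* value rests on the GR KO controls at 0, so its size depends on the prior count and is no bound. DESeq2 again gave an adjusted p to *Cd79b* alone, so the other 4 could not be called by it. The GC effects on *Cd79b* and *Igj* in GR KO tumors are therefore not shown to differ from those in parental tumors. *Ighm* (1.41), *Igkc* (-2.06) and *Mzb1* (-0.46) had edgeR adjusted p of 0.535 to 0.895. Without GR KO GC replicate 2 the *Mzb1* value was 0.10. The median over the 5 genes was -0.46, against -0.04 for all genes. It was 0.10 without that tumor and -1.27 without GR KO control replicate 4.

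For GR KO against parental control tumors, edgeR called 0 of the 5 genes (1 at p under 0.05) and DESeq2 called 1 (1 at p under 0.05), against 2.25% of all genes by edgeR and 6.29% by DESeq2. The DESeq2 call was *Igj*, at 0 in all 5 GR KO controls and above 3 counts in 2 of 5 parental controls. No GR KO control and 2 of 5 parental controls reached 0.5 CPM, so this call too carries little weight. By the floor *Igj* was at least 2.41-fold lower (parental mean 0.436 CPM), and at least 1.29-fold without parental control replicate 2 (parental mean 0.233 CPM). It had an adjusted p of 0.0563 by edgeR and 0.0115 by DESeq2, over a range of 0.0115 to 0.362 in the alternatives. edgeR called *Igj* without parental control replicate 5 (adjusted p 0.0466) and without GR KO control replicate 4 (0.0394). Its exact permutation p was 0.0476, again the least that 6 tumors at 0 allow. *Cd79b* (0.23), *Ighm* (1.43), *Igkc* (-0.29) and *Mzb1* (-0.23) had edgeR adjusted p of 0.486 to 0.933. The direction for *Cd79b* depended on the scaling: without TMM factors the difference in mean log2(CPM + 1) was -0.04, against 0.20 with them. Leaving out single tumors moved *Igkc* between -0.71 and 0.32, above 0 without parental control replicate 4 or GR KO control replicate 2 or 5. It moved *Mzb1* between -1.03 and 0.18, above 0 without parental control replicate 1 or GR KO control replicate 1 or 5.

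For GR KO against parental GC tumors, edgeR called 0 of the 5 genes (0 at p under 0.05) and DESeq2 called 0 (1 at p under 0.05), against 0.634% of all genes by edgeR and 1.84% by DESeq2. DESeq2 gave an adjusted p to *Cd79b* alone here as well. *Cd79b* was -0.79 (SE 0.40) with an edgeR adjusted p of 0.455, and *Igkc* was 1.77 with 0.621. *Igj* (-0.02), *Ighm* (0.01) and *Mzb1* (0.23) had edgeR adjusted p of 0.957 to 0.998, and the sign of each changed when single tumors were left out. The median over the 5 genes was 0.01 in GC tumors and -0.23 in controls, against 0.01 and -0.04 for all genes. Without single tumors these medians ran from -0.17 to 0.34 and from -0.61 to 0.26.

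The number of genes detected moved with *Igj*. Scaled to 15528066 counts, 13399, 14794, 15142, 16780 and 14265 genes would have a count in GR KO control tumors, against 15155 to 16655 in GR KO GC, 15578 to 16762 in parental control and 15794 to 16916 in parental GC tumors. In GR KO control replicate 4, with 16780 genes, *Igj* was at 0 as in the rest of its group. That tumor also stood apart in its TMM factor, 1.10 against 0.753 to 0.919 in the others of the group. Over the 20 tumors Pearson's r between *Igj* and this number was 0.60 (Spearman's rho 0.56), r was 0.56 without the 2 farthest tumors, and r of deviations from group means was 0.37. For *Igj* r was also -0.56 with summed leukocyte genes, -0.53 with summed B cell surface genes and -0.44 with summed T cell markers. As deviations from group means these were 0.09, 0.009 and 0.233. The points share the library and its depth, and the part of RNA quality or library complexity was not tested. The 8 genes most alike to *Igj*, listed after its values were seen, were *Map1b* (r 0.86), *Usp42*, *Stt3b*, *Srp19*, *Son*, *Polk*, *Ccdc88a* and *Ndc80* (0.81), none of them a B cell or plasma cell gene.

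*Cd79b* moved with markers of T cells and of other leukocytes. Its r with the summed CPM of 13 T cell markers was 0.71 over the 20 tumors (rho 0.68), 0.66 without the 2 farthest tumors and 0.53 for deviations from group means. With the summed list of other B cell surface and receptor signalling genes r was 0.46 (rho 0.36, deviations 0.45). It was 0.20 without the 2 farthest tumors. With 6 genes of all leukocytes r was 0.67 (rho 0.74, deviations 0.65) and with 8 macrophage genes 0.53 (rho 0.56, deviations 0.62). Without the 2 farthest tumors these r were 0.63 and 0.46. The leukocyte genes are expressed by T cells too, and no difference between these correlations was tested. These are descriptions of libraries that share depth and the total amount of leukocyte RNA. The T cell sum averaged 180 CPM in parental control, 128 in parental GC, 255 in GR KO control and 101 in GR KO GC tumors, the group in which *Cd79b* was also lowest. Whether the lower *Cd79b* follows the lower T cell markers was not tested. The 8 genes most alike to *Cd79b*, also listed after its values were seen, were *Lpxn* (r 0.81), *Cuta*, *Batf3*, *Cd3e*, *H2-Ab1*, *Ccdc134*, *Naaa* and *Coro7* (0.75). For *Igkc* they were *Plekhg4* (r 0.82), *Ewsr1*, *Gm15972*, *Qpct*, *Gm10116*, *Rbmxl1*, *Sntg2* and *Rlim* (0.73). With 1 count, *Cd79a* gave no such list. Between pairs of the 5 genes themselves r ran from -0.41 to 0.38, and from -0.56 to 0.44 for deviations from group means. Whether these genes rise and fall together was not tested.

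**Figure D2:**
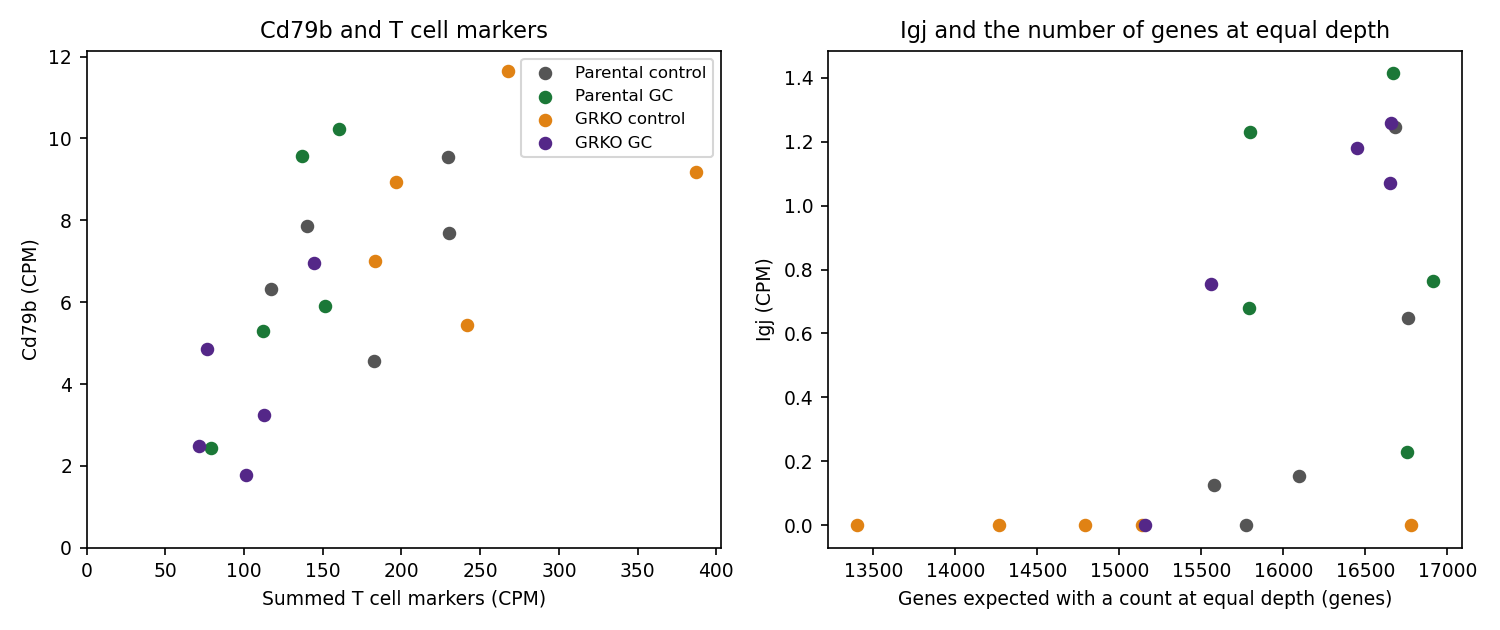
*Cd79b* against summed T cell markers and *Igj* against the number of genes expected with a count at equal depth, in 20 tumors.

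Among the other immunoglobulin genes, *Igha* (the IgA heavy chain) had more counts than any member in each of the 20 tumors. It had 614, 378, 666, 409 and 384 counts in parental control and 154, 950, 1096, 7916 and 659 in parental GC tumors. In GR KO tumors it had 512, 1832, 1143, 399 and 480 counts with control and 235, 459, 1169, 583 and 581 with GC. The groups overlapped, parental GC replicate 4 stood alone, and cultures had up to 18 counts. *Igha* made up 65.7 to 100% of the counts of 7 heavy chain constant genes in each tumor (median 93.5%). Its counts exceeded those of the light chain genes *Igkc* and *Iglc2* in 20 of 20 tumors, 20619 against 214 in all. The 221 variable segment genes had 25 counts in all, in 3 tumors. The cause of this imbalance between heavy chain, light chain and variable segment counts was not tested. The log2 fold change of *Igha* with GC was 2.06 in parental and -0.90 in GR KO tumors, with edgeR adjusted p of 0.177 and 0.427. The difference between them was 2.96 (edgeR adjusted p 0.116). Without parental GC replicate 4 the parental value was 0.49 and the difference 1.39, and edgeR called the difference only without GR KO control replicate 4 (adjusted p 0.0406). *Ighg2c* (an IgG heavy chain) had 0 counts in all 5 GR KO controls and 11, 202, 136, 0 and 47 with GC, at least 21.7-fold higher, and at least 12.1-fold without GR KO GC replicate 2. edgeR called it (adjusted p 0.0226, and in 7 of 10 fits that left out a tumor), but like *Igj* it entered the test through groups other than the one at 0, so the call carries little weight. Over edgeR and DESeq2 alternatives its adjusted p ran from 0.00674 to 0.0640. Among the fits without a tumor, edgeR did not call it without GR KO GC replicate 3 (adjusted p 0.0595) or GR KO control replicate 1 (0.0526) or 2 (0.0504).

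**Figure D3:**
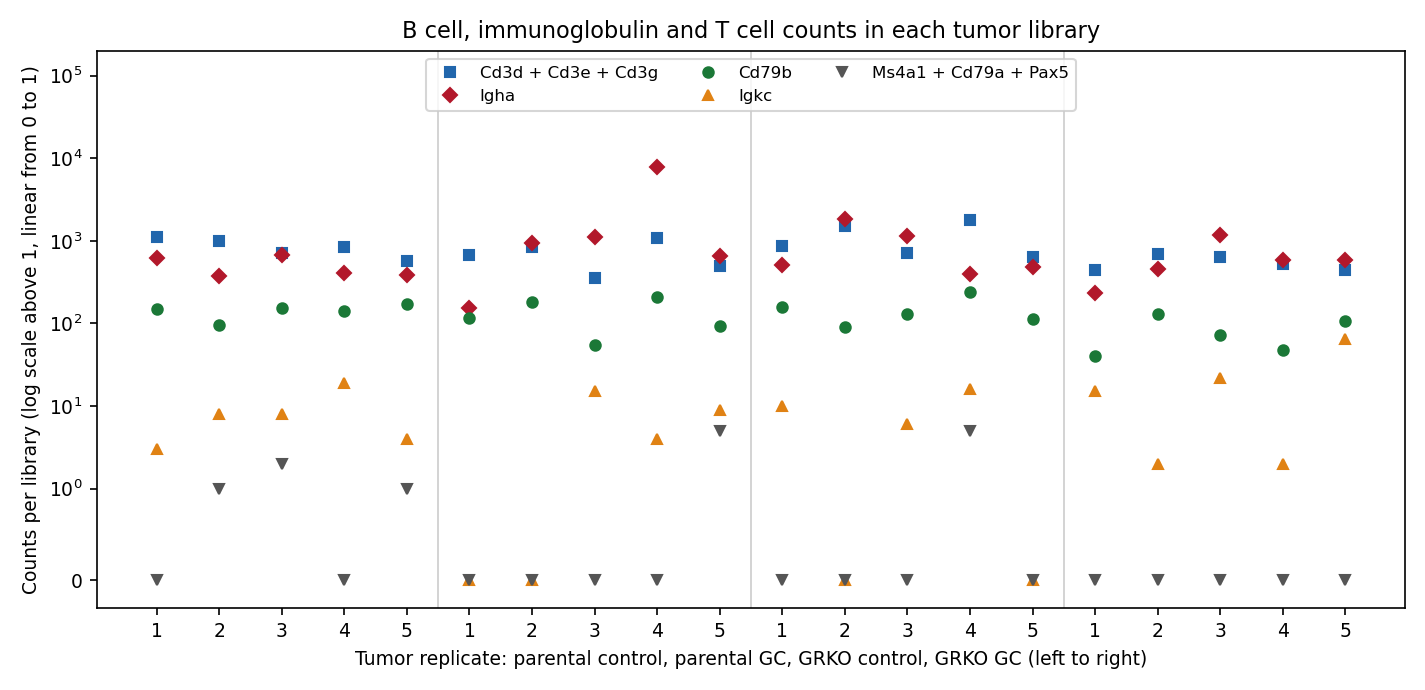
Counts per tumor of summed B cell defining genes, *Cd79b*, *Igkc*, *Igha* and summed *Cd3* genes, on a log scale above 1.

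Further B cell and plasma cell genes changed in both directions with GC in GR KO tumors. edgeR called *Cd38* (1.14) and *Cd40* (-0.94) of 18 tested surface and receptor signalling genes, *Ebf1* (0.80) and *Pou2f2* (-1.56) of 9 lineage factors, and *Slamf7* (-1.47) of 13 plasma cell genes, beside 6.42% of all genes. DESeq2 called 4, 3 and 2 genes of these lists, beside 11.03% of all genes. Beyond the edgeR calls these were *Cd37* (-1.05), *Blnk* (-0.85), *Bcl11a* (-1.11) and *Fkbp11* (1.16). These counts are small and are not read as a change of a list. With GC in parental tumors edgeR called 0 of each list (6, 0 and 4 at p under 0.05), beside 124 of all 15919 genes (2249 at p under 0.05), and DESeq2 called *Cd72* (-1.14, adjusted p 0.0224) and *Edem1* (-0.92, 0.0294). In GR KO against parental controls DESeq2 called *Cd40* (0.84) and *Cd22* (1.93) of the surface genes, where edgeR called 0 (3 at p under 0.05), and *Slamf7* (1.32) of the plasma cell genes. In the difference between GC effects it called *Txndc5* (-2.87). Of 7 precursor and germinal center genes edgeR and DESeq2 called 0 in every comparison (0 to 2 at p under 0.05), though DESeq2 gave no adjusted p to 4 of the 7 in 3 comparisons and to 1 in the others. The most abundant were *S1pr2* (106.5 CPM) and *Bcl6* (37.3 CPM). The whole list summed to 106.5 to 210.7 CPM in tumors and to 88.0 to 114.6 CPM in cultures without immune cells. *Fkbp11* (-1.44) was called by both tools in GR KO against parental controls. *Cd38*, *Ebf1* and *Fkbp11* were also counted in all 11 cultures, and other leukocytes express *Cd40*, *Pou2f2* and *Slamf7*, so none of these is specific to B cells here. Of 6 tested ligands that draw or help B cells, *Ltb* fell with GC in parental (-2.25, adjusted p 0.0348) and GR KO tumors (-2.30, 0.0111), and *Cxcl13* rose in GR KO tumors (1.90, 0.0343), by edgeR.

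Markers of other cells were counted beside the members. Of all genes edgeR called 6.42% with GC in GR KO tumors, 0.779% with GC in parental tumors, 2.25% between controls and 0.634% between GC tumors. DESeq2 called 11.03%, 2.36%, 6.29% and 1.84% in the same order, and 4.92% in the difference between GC effects. The marker calls below are not read as changes of a cell type. With GC in GR KO tumors edgeR called *Cd2*, *Lck* and *Cd3d* (of 12 T cell markers), *Laptm5* and *Cd52* (of 6 leukocyte genes), 4 of 5 red cell genes (*Hba-a1*, *Hba-a2*, *Hbb-bs* and *Hbb-bt*), *Krt14*, *Myh4* and *Cfd* lower, and *Krt1* and *Krt10* higher. In parental tumors edgeR called lower *Coro1a* and higher *Krt15* and *Lor* with GC. In GR KO against parental controls *Laptm5* and *Hba-a2* were higher and *Krt1* lower by edgeR, and in GC tumors *Cfd* was lower. Of 4 lymph node stroma genes edgeR called *Cxcl13* with GC in GR KO tumors (3 at p under 0.05) and 0 in the other comparisons. edgeR called 0 of 8 macrophage, 6 plasmacytoid dendritic cell and 5 melanocyte genes in every comparison (0 to 2 of a list at p under 0.05). The 2 most abundant genes of each list without a call here were *C1qa* and *C1qb* (macrophage), *Cox6a2* and *Siglech* (plasmacytoid dendritic cell) and *Mitf* and *Dct* (melanocyte). Striated muscle markers summed to 284.5 to 655.3 CPM in tumors. Whether *Cox6a2* counts came from plasmacytoid dendritic cells or from muscle was not tested, so its calls are not read as a change of either. DESeq2 made further calls, among them *C1qa* and *Fcgr1* higher in GR KO than parental controls, *Cox6a2* in 3 comparisons, *Enpp2* in 1, and *Laptm5*, *Hba-a1* and *Hba-a2* in the difference between GC effects. Of T cell markers it called *Cd2* (-0.96) and *Cd5* (-2.31) lower with GC in parental tumors, and *Cd3e* (-1.22) besides the edgeR calls in GR KO tumors. Of 5 glucocorticoid response genes edgeR called *Tsc22d3*, *Per1* and *Sgk1* higher with GC in parental and *Tsc22d3*, *Fkbp5* and *Per1* in GR KO tumors. By edgeR GR KO tumors had lower *Fkbp5* with control and lower *Per1* with GC.

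In total, *Cd79b* was the one member counted above the culture background in all 20 tumors, and the 3 defining B cell genes stayed at or near 0. *Ighm*, *Mzb1*, *Igkc* and *Igj* were above 3 counts in 17, 15, 13 and 11 of 20 tumors. *Igj* in GR KO tumors was the one edgeR call among 5 tested genes and 5 comparisons, and it rests on a control group at 0.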

How the data were processed

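Gene counts deposited by the authors came from QuantSeq 3′ libraries of 20 tumors and 11 cultures, trimmed with Trim Galore, aligned with STAR to GRCm38 and counted with featureCounts and Ensembl release 75. All 31 libraries matched their labels by name. Library totals were 15528066 to 26386770 counts in tumors, where 3 counts equal 0.114 to 0.193 CPM, and 14441166 to 22463188 in cultures. The 20 tumors were fitted together in edgeR 4.0.16 (R 4.3.3) with TMM factors (0.753 to 1.13) and the quasi-likelihood test, for genes with CPM of at least 0.5 in at least 3 tumors. A gene was called at a Benjamini-Hochberg adjusted p under 0.05 over all genes tested and a fold change of at least 1.5. DESeq2 1.42.0 was the second tool. Exact permutation tests used log2(CPM + 1) over 252 divisions. The code was tested on simulated data. By rule the genes named were all members, the genes edgeR called in each marker list (at most 8 a list, otherwise the 2 most abundant), *Nr3c1* and the 8 genes most correlated with *Cd79a* (not possible with 1 count) and *Igkc*. Genes most correlated with *Igj* and *Cd79b*, and list genes called by DESeq2 alone, were named after their values were seen, the latter in part. Members and lists were chosen with earlier results of these data known. Alternatives were DESeq2, its size factors, other low-count filters, a replicate block, fits of the compared groups alone, no minimum fold change, a covariate and leaving out each tumor. The culture GC dose is 1 µM in library names and 10 µM in the labels.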

Additional observations from a re-analysis of the deposited data

Results flagged for a closer look

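A value far from the other 4 of its group was found in 3 of 28 groups examined. Chance flags about 1 in 20 groups of continuous values, a rate that does not hold for groups with tied zeros. *Ms4a1* had 5 counts (0.285 CPM) in parental GC replicate 5 and 5 counts (0.193 CPM) in GR KO control replicate 4, with 0 in the other tumors of both groups, where any single count would stand out in this way. *Igha* had 7916 counts (389.7 CPM) in parental GC replicate 4, a gap to the next tumor of 0.89 of the range of its group. The causes were not tested.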

How the results depend on the processing

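Across alternatives other than leaving out a tumor, 156 of 164 member fold changes kept their direction and side of the threshold, 2 lost a call, 2 gained one and 4 changed direction. For GC against control in GR KO tumors the members called were 1 in the fit reported, 2 by DESeq2, 0 when only the compared groups were fitted (391 genes called in all) and 0 with the number of genes at equal depth as a covariate (217 called in all), an alternative chosen after seeing the data. Without one tumor in turn the count was 1 to 2. For GR KO against parental controls it was 0 as reported, 1 by DESeq2 and 0 to 1 without one tumor. The cause was not tested, other than that fewer samples were fitted with the compared groups alone.

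With the covariate, *Igkc* (0.76) and *Cd79b* (-0.04) changed direction for GR KO against parental controls. With a replicate block, *Igj* (0.31) and *Mzb1* (-0.02) did so for GR KO against parental GC tumors, and 1 member was called for GC in GR KO tumors. Correlations of tumors with the same replicate number averaged 0.0253 over 30 pairs and ran from -0.331 to 0.228. These values cannot show whether the numbers pair the tumors. The causes were not tested.

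Leaving out each tumor in turn, 18 of 300 member fold changes changed direction. Ranges were -0.31 to 0.11 for *Cd79b* with GC in parental tumors, -1.27 to 0.10 for the difference in *Mzb1*, -0.71 to 0.32 for *Igkc* and -1.03 to 0.18 for *Mzb1* between controls, and -0.26 to 0.30 (*Igj*), -0.43 to 0.34 (*Ighm*) and -0.34 to 0.70 (*Mzb1*) between GC tumors. *Igj* with GC in GR KO tumors stayed called by edgeR in 10 of 10 fits (6.89 to 7.40, adjusted p 0.0112 to 0.0492). The exact tests gave 3 comparisons with p under 0.05 under each scaling and pseudocount tried, with a smallest p of 0.0159, or 0.0476 without TMM factors. Counts of members other than *Cd79b* ran from 0 to 86 per library. What difference this depth and the spread between tumors could show was not measured.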
